A study of Chlamydomonas reinhardtii with 16 samples.

Results

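Expression over the day was followed for 6 genes of photoprotection in the green alga *Chlamydomonas reinhardtii*: LHCSR1, LHCSR3.1, LHCSR3.2, PSBS1, PSBS2 and STT7. They were chosen by locus number, with earlier results of these data known, and all 6 loci were found among the 17114 gene models measured. The files and the annotation used here carry no symbols, so the symbols are those paired with the loci when the genes were chosen. RNA was sequenced from strain dw15.1, grown in TAP, a Tris, acetate and phosphate medium, so that acetate was supplied in the light and in the dark. Small cultures set up from 1 parent culture in constant light were kept for 48 hr in 12 hr of light and 12 hr of dark, and then sampled at 8 time points 3 hr apart, from ZT 0 to ZT 21 (Zeitgeber time, hours since the last dawn). Each time point had 2 replicates, A and B, each an independent culture. Samples at ZT 0 were collected in the dark immediately before dawn and those at ZT 12 in the light immediately before dusk, so ZT 3, 6, 9 and 12 are light samples and ZT 15, 18, 21 and 0 are dark samples. There was no treatment, no other strain and no shift to strong light. All comparisons are between times of day in 1 strain under 1 growth regime.

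Photosynthetic cells absorb more light than they can use when light is strong or when carbon fixation lags, and dissipate the excess as heat. LHCSR proteins are pigment-binding relatives of the light-harvesting antenna that carry out this quenching in green algae when the thylakoid lumen turns acidic, and in *C. reinhardtii* LHCSR3 is encoded by a pair of near-identical genes. PSBS has the corresponding role in land plants, where it is made constitutively, while in *C. reinhardtii* it is known to be induced by strong light and UV-B. STT7 is the thylakoid protein kinase of state transitions, which phosphorylates antenna proteins of photosystem II when the plastoquinone pool is reduced, so that part of the antenna serves photosystem I.

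Between 5.87e6 and 2.19e7 fragments per library (median 1.47e7) lay behind the values, and replicates of a time point correlated at 0.994 to 0.997 across genes whose mean reached 1 FPKM, the number of sequenced fragments for each kilobase of a transcript, scaled to the mapped fragments of the library. FPKM were scaled between libraries to a common 75th percentile. Calls come from limma, fitted to log2(FPKM + 1) in the 12153 genes whose mean reached 1 FPKM, at an adjusted p (Benjamini-Hochberg) under 0.05. Since log2(FPKM + 1) flattens low values, changes of genes near or below 1 FPKM are understated on that scale.

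The 6 genes covered a wide range of levels. LHCSR1 had a daily mean of 61.0 FPKM, the rank 574 of 17114 gene models, and STT7 had 11.1 FPKM, rank 2581. LHCSR3.2 had 0.797 FPKM, rank 12884, and LHCSR3.1 0.251 FPKM, rank 14573. PSBS1 was at 0.0554 FPKM and PSBS2 at 0.0151 FPKM, from 33 and 10 fragments over all 16 libraries. FPKM are per length of transcript, so the levels of LHCSR1 and STT7 can be set side by side. Those of the LHCSR3 and PSBS copies are less certain, since reads shared between copies may have gone to either or been left out. Only LHCSR1 and STT7 passed the filter at a mean of 1 FPKM, and the other 4 genes were tested in the same model without a filter, over the 16815 gene models above 0 in at least 1 library.

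**Figure D1:**
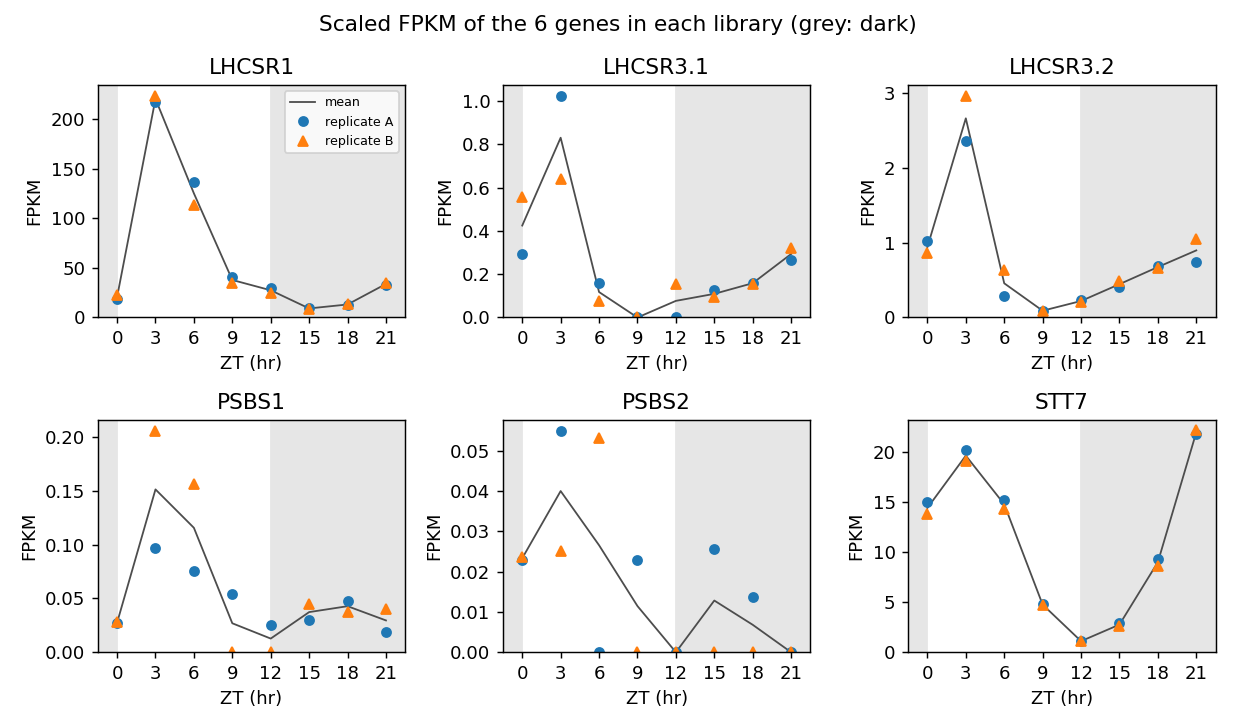
Scaled FPKM (vertical axes, each from 0) against ZT in hr for each of the 6 genes; points are single libraries of replicates A and B, the line joins the means of both, and grey marks the dark. LHCSR1, LHCSR3.1 and LHCSR3.2 are highest at ZT 3, STT7 is highest at ZT 21 and lowest at ZT 12, and PSBS1 and PSBS2 stay at or under 0.206 FPKM.

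LHCSR1 (Cre08.g365900, chromosome 8 of genome version 4.3, 1257469 to 1259618), an LHCSR form known to be induced by UV-B as well as by strong light, had a steep morning peak. In replicates A and B it stood at 18.3 and 22.8 FPKM at ZT 0 and at 217 and 224 FPKM at ZT 3, the highest values of the day. It then stood at 137 and 113 FPKM at ZT 6, at 41.2 and 34.5 at ZT 9, and at 30.0 and 25.0 at ZT 12. In the dark it was at 9.31 and 8.97 FPKM at ZT 15, at 12.5 and 13.8 at ZT 18, and at 32.5 and 35.1 at ZT 21. Replicates overlapped between ZT 9 and ZT 21 but not between any other neighbours in the order of the means, which ran ZT 3, 6, 9, 21, 12, 0, 18 and 15. Peak and trough fell at ZT 3 and ZT 15 in both replicates, and the fold between their means, 220.6 and 9.14 FPKM, was 24.1. The median fold of all genes tested was 3.2, and LHCSR1 ranked 971 of 12153. Between 357 and 8801 fragments lay behind each value.

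LHCSR1 rose 10.7-fold in the first 3 hr of light, by 3.37 ± 0.12 (SE) on the log2(FPKM + 1) scale (limma, adjusted p = 7.009e-12), the rank 16 from the highest of the 12153 changes at this step. The fall spread over the next 12 hr. LHCSR1 fell 1.76-fold from ZT 3 to ZT 6 (adjusted p = 2.083e-05 from limma) and 3.31-fold from ZT 6 to ZT 9 (adjusted p = 1.312e-08) at rank 149 from the lowest change. It fell 1.38-fold from ZT 9 to ZT 12 (adjusted p = 0.003684) and 3.00-fold in the first 3 hr of dark (adjusted p = 5.563e-08). The samples at ZT 3 and ZT 6 held 70.9% of the sum over the 8 time points.

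LHCSR1 rose again in the dark, before any light. It rose 1.44-fold from ZT 15 to ZT 18 (adjusted p = 0.01208 from limma) and 2.58-fold from ZT 18 to ZT 21 (adjusted p = 1.279e-06), where it ranked 52 of 12153. Over those 6 hr its mean went from 9.14 to 33.8 FPKM, a 3.70-fold rise. It fell 1.65-fold from ZT 21 to ZT 0 (by 0.70 on the log2 scale, adjusted p = 0.0001181), so that its level just before dawn, 20.5 ± 3.17 FPKM (SD, n = 2), was 9.31% of its level at ZT 3. The call from ZT 9 to ZT 12 was lost with median ratio scaling (adjusted p = 0.116 from limma) and without replicate A of ZT 9 or replicate B of ZT 12 (0.05025 and 0.0568). The call from ZT 15 to ZT 18 was lost without replicate B of ZT 15 or of ZT 18 (adjusted p = 0.07495 and 0.1021).

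The pair of LHCSR3 genes, needed for most of the heat dissipation of *C. reinhardtii* in strong light, was expressed at a far lower level, also with its highest value at ZT 3. LHCSR3.2 (Cre08.g367400, chromosome 8, 1481656 to 1483867) stood at 1.02 and 0.863 FPKM in replicates A and B at ZT 0, at 2.36 and 2.96 at ZT 3, and at 0.284 and 0.628 at ZT 6. At ZT 9 both replicates were at 0.090 FPKM, from 4 and 3 fragments. LHCSR3.2 was then higher at each later time point: 0.234 and 0.206 FPKM at ZT 12, 0.404 and 0.485 at ZT 15, 0.685 and 0.662 at ZT 18, and 0.743 and 1.05 at ZT 21. Values at ZT 3 overlapped with no other time point, and those at ZT 9 were below all others. Summed over replicates, 207 fragments at ZT 3 stood against 7 at ZT 9, a 29.6-fold difference for equal depth (exact 95% interval 14.1 to 74.6, counting error only).

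LHCSR3.1 (Cre08.g367500, chromosome 8, 1492987 to 1495208) had the same order of time points as LHCSR3.2, ZT 3, 0, 21, 18, 6, 15, 12 and 9, at lower levels. It stood at 0.292 and 0.557 FPKM at ZT 0, at 1.02 and 0.638 at ZT 3, and at 0.157 and 0.0781 at ZT 6. No fragment was found in either replicate at ZT 9 or in replicate A at ZT 12, and replicate B at ZT 12 held 3 fragments. From ZT 15 to ZT 21 the values lay between 0.0928 and 0.319 FPKM. Its mean at ZT 3, 0.831 FPKM, was at least 9.26-fold higher than a level of 3 fragments per library at ZT 9. Values at ZT 3 lay above those of every other time point, while 5 of the 7 pairs of neighbours in the order overlapped.

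In the model without a filter, both LHCSR3 genes rose from ZT 0 to ZT 3, where 27.8% of all 16815 genes were called higher. LHCSR3.2 rose by 0.91 ± 0.11 (SE) on the log2(FPKM + 1) scale (limma, adjusted p = 1.427e-05) and LHCSR3.1 by 0.36 ± 0.10 (adjusted p = 0.007575). Both fell from ZT 3 to ZT 6, with 31.2% of all genes called lower, LHCSR3.2 by 1.33 (adjusted p = 4.905e-07 from limma) and LHCSR3.1 by 0.70 (adjusted p = 5.616e-05). LHCSR3.2 also fell from ZT 6 to ZT 9, by 0.41 (adjusted p = 0.006927, 22.7% of all genes called lower), and the change of LHCSR3.1 there was -0.16 (adjusted p = 0.2025), or -1.10 with a pseudocount of 0.1 (adjusted p = 0.02253). None of the single steps from ZT 9 to ZT 0 passed the test for either gene, with adjusted p of 0.07491 to 0.8041 from limma. The call of LHCSR3.1 from ZT 0 to ZT 3 was lost without replicate A of ZT 0 or of ZT 3 (changes of 0.23 and 0.21, adjusted p = 0.102 and 0.1062 from limma), with FPKM as deposited (0.05292) and with a pseudocount of 0.1 (0.06239), and that of LHCSR3.2 from ZT 6 to ZT 9 without replicate B of ZT 6 (-0.24, adjusted p = 0.08947).

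The copies are 9120 positions apart on chromosome 8, with 2 other gene models between them at 2.51 to 6.91 FPKM in all libraries. Reads that match both copies may have been assigned to either or left out, since at most 1 hit per read was kept. How far the split follows the copies is thus uncertain. The sum is the safer value but may be too low. LHCSR3.2 was higher than LHCSR3.1 in 16 of 16 libraries and held 76.6% of the 768 fragments of the pair (95% Wilson interval 73.4 to 79.4, counting error only). In the 11 libraries with at least 20 fragments of the pair its share ran from 60.7 to 88.9%. At ZT 0 the shares of the replicates were 77.6 and 60.7%, with overlapping Wilson intervals. They lay further apart at ZT 6 (64.3 and 88.9%) and ZT 12 (100 and 57.1%), on fewer fragments, and closer at the other time points. The summed pair stood at 1.37 ± 0.078 FPKM (SD, n = 2) at ZT 0, at 3.49 ± 0.155 at ZT 3, at 0.574 at ZT 6 and at 0.0902 at ZT 9, and was at 1.19 FPKM at ZT 21.

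**Figure D2:**
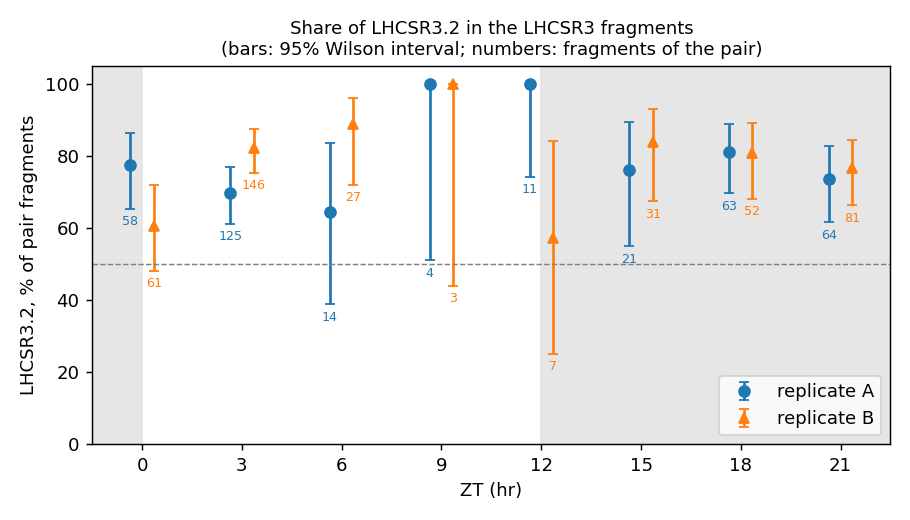
Share of LHCSR3.2 in the fragments of LHCSR3.2 and LHCSR3.1 together (vertical axis, percent) against ZT in hr, 1 point per library, with 95% Wilson intervals as bars and the fragments of the pair as numbers below them; the dashed line marks equal shares and grey the dark. All 16 points lie above the line, and the lowest counts, 3 to 11 fragments, are those at ZT 9 and ZT 12.

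Set against the LHCSR3 pair, LHCSR1 was the predominant LHCSR transcript measured at all times, by a ratio that changed over the day. If reads shared by the LHCSR3 copies were left out, the sum is too low and the ratios are too high. LHCSR1 exceeded the summed pair 64.3- and 62.2-fold in replicates A and B at ZT 3, and 14- and 16-fold at ZT 0. At ZT 9, where the pair rested on 3 to 4 fragments per library, the ratio was 457 and 382. It returned to 17.6 and 15.5 at ZT 15. At ZT 6 LHCSR1 was still at 56.8% of its highest mean and the LHCSR3 pair at 16.4%, and at ZT 0 LHCSR1 was at 9.31% and the pair at 39.1%. The replicates of the genes did not overlap at either time on this relative scale; the difference between the genes was not tested.

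PSBS1 (Cre01.g016600, chromosome 1, 2621048 to 2622937) and PSBS2 (Cre01.g016750, chromosome 1, 2629605 to 2631787) were close to the detection limit throughout. PSBS1 had 0 to 7 fragments per library, and 17 of its 33 fragments were in the 4 libraries of ZT 3 and ZT 6. It stood at 0.0967 and 0.206 FPKM in replicates A and B at ZT 3, at 0.0753 and 0.156 at ZT 6, and at 0 to 0.0538 in the other 12 libraries, with 2 libraries at 0. PSBS2 had 0 to 2 fragments per library and 8 libraries at 0, and its values reached 0.0549 FPKM. A count of 3 fragments equaled 0.0480 to 0.184 FPKM for PSBS1 and 0.0409 to 0.157 FPKM for PSBS2 in the single libraries. Values below the level of their library thus rest on 0 to 2 fragments, and differences between such values are uncertain. As with LHCSR3, PSBS1 and PSBS2 are similar copies 6668 positions apart, and reads they share may be split between them or left out.

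In the model without a filter, PSBS1 rose from ZT 0 to ZT 3 by 0.16 ± 0.043 (SE) on the log2(FPKM + 1) scale (limma, adjusted p = 0.005792) and fell from ZT 6 to ZT 9 by 0.12 (adjusted p = 0.03414). The rise rested on 2 fragments at ZT 0 and 10 at ZT 3. It was lost without replicate B of ZT 3 (0.09, adjusted p = 0.07685 from limma), and the fall was lost without replicate B of ZT 6 or of ZT 9 (adjusted p = 0.2849 and 0.2299), with FPKM as deposited (0.06206) and without the intensity trend (0.07682). No step of PSBS2 passed the test (adjusted p of 0.2861 to 0.8961 from limma).

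STT7 (Cre02.g120250, chromosome 2, 6047921 to 6056320), the state transition kinase, ran on another schedule. In replicates A and B it stood at 15.0 and 13.9 FPKM at ZT 0, at 20.2 and 19.1 at ZT 3, and at 15.2 and 14.4 at ZT 6. It was then at 4.83 and 4.70 FPKM at ZT 9 and at 1.09 and 1.13 at ZT 12, the lowest values of the day. In the dark it stood at 2.95 and 2.59 FPKM at ZT 15, at 9.37 and 8.66 at ZT 18, and at 21.8 and 22.2 at ZT 21, the highest. Replicates overlapped between ZT 6 and ZT 0 and between no other neighbours in the order ZT 21, 3, 6, 0, 18, 9, 15 and 12. Between 90 and 5627 fragments lay behind each value. The highest mean, 22.0 FPKM at ZT 21, was 19.8-fold above the lowest, 1.11 FPKM at ZT 12, a fold that ranked 1112 of 12153 genes.

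Most of the rise of STT7 took place in the dark. It rose 2.49-fold from ZT 12 to ZT 15 (by 0.83 ± 0.074 (SE) in log2 units, limma, adjusted p = 1.515e-07), 3.26-fold from ZT 15 to ZT 18 (by 1.41, adjusted p = 4.464e-08) and 2.44-fold from ZT 18 to ZT 21 (by 1.20, adjusted p = 3.563e-08). From ZT 15 to ZT 18, the 3 hr with the fewest calls over all genes, it ranked 20 from the highest change. STT7 fell 1.52-fold from ZT 21 to ZT 0, still in the dark (adjusted p = 7.346e-06 from limma), and rose 1.36-fold from ZT 0 to ZT 3 (by 0.42, adjusted p = 0.0001267). With FPKM as deposited, without scaling between libraries, this morning rise was 0.13 (adjusted p = 0.1525), where the median of all genes shifted by -0.24 for the same step.

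Most of the fall of STT7 took place in the light. It fell 1.33-fold from ZT 3 to ZT 6 (adjusted p = 0.0002529 from limma), 3.11-fold from ZT 6 to ZT 9 (adjusted p = 4.705e-10) and 4.29-fold from ZT 9 to ZT 12 (adjusted p = 2.825e-10). Its level was thus 17.7-fold lower at the end of the light period than at ZT 3. The dark samples held 54.3 and 54.6% of the daily sum of STT7 in replicates A and B, against 14.6 and 16.9% for LHCSR1.

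**Figure D3:**
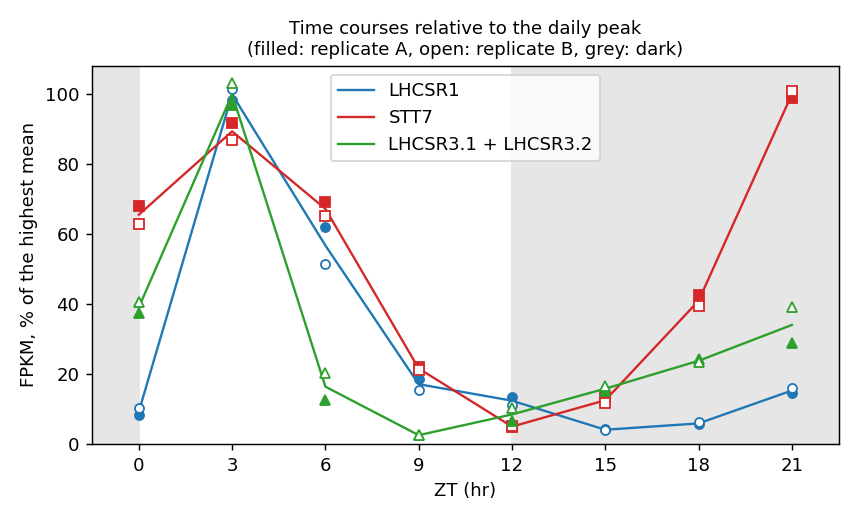
Levels of LHCSR1, STT7 and the sum of LHCSR3.1 and LHCSR3.2 (vertical axis, FPKM in percent of the highest mean of each) against ZT in hr; lines join means of 2 replicates, filled points are replicate A, open points replicate B, and grey marks the dark. At ZT 6 LHCSR1 stands at 56.8% and the LHCSR3 pair at 16.4% of the peak, and at ZT 21 STT7 is at its peak while LHCSR1 is at 15.3%.

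Over the 8 steps between time points, LHCSR1 and STT7 were called at every one. Both rose from ZT 0 to ZT 3 (32.6% of the 12153 genes were called higher and 38.8% lower), and both fell from ZT 3 to ZT 6 (36% called lower and 33.7% higher), from ZT 6 to ZT 9 (28.8% lower and 34.6% higher) and from ZT 9 to ZT 12 (42.8% lower and 28.6% higher). From ZT 12 to ZT 15 LHCSR1 fell and STT7 rose, while 31.9% of all genes were called lower and 34.2% higher. Both rose from ZT 15 to ZT 18 (9.25% of all genes higher and 8.89% lower) and from ZT 18 to ZT 21 (25% higher and 20.2% lower), and both fell from ZT 21 to ZT 0 (34.2% lower and 33% higher).

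**Figure D4:**
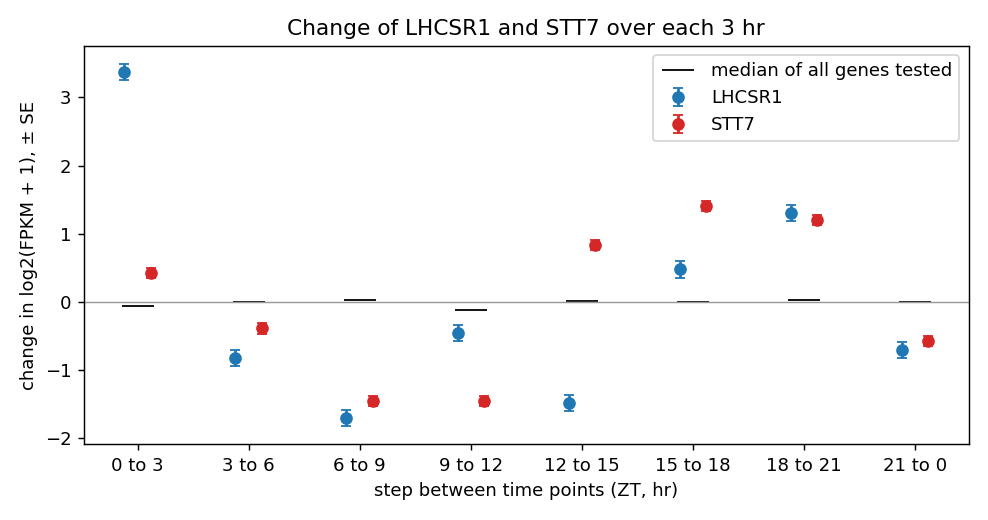
Change in log2(FPKM + 1) of LHCSR1 and STT7 (vertical axis) over each step of 3 hr between time points (horizontal axis, ZT in hr); points are limma estimates with standard errors from 2 replicates per time point, and black dashes are the medians of the 12153 genes tested. LHCSR1 rises by 3.37 from ZT 0 to ZT 3, and from ZT 12 to ZT 15 it falls while STT7 rises by 0.83.

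Between light and dark samples, LHCSR1 was higher in the light by 2.04 ± 0.06 (SE) in log2 units (limma, adjusted p = 8.467e-14), where 44.5% of all genes were called higher. It ranked 79 of 12153. STT7 was lower in the light by 0.44 (adjusted p = 2.381e-08 from limma), where 39.5% were called lower. For both genes the samples of light and dark overlapped: LHCSR1 at ZT 12 was below its level at ZT 21, and STT7 had its second highest level at ZT 3. In the model without a filter, the difference was -0.08 for LHCSR3.2 (adjusted p = 0.18 from limma), -0.03 for LHCSR3.1 (0.6394) and 0.01 for PSBS2 (0.4001). With a pseudocount of 0.1 both LHCSR3 genes were called lower in the light, at -0.45 for LHCSR3.1 (adjusted p = 0.04084 from limma) and -0.57 for LHCSR3.2 (adjusted p = 0.0009289). Low values, as at ZT 9 and ZT 12, weigh more on that log scale. In FPKM, the dark samples held 47.1 and 46.8% of the daily sum of the LHCSR3 pair in replicates A and B. For PSBS1 the difference with a pseudocount of 1 was 0.06 (adjusted p = 0.03451 from limma, with 39.1% of all genes called higher). This call was lost with FPKM as deposited (0.1181) and without the intensity trend (0.07747). It was also lost, at adjusted p of 0.05362 to 0.08726 from limma, without either replicate of ZT 0 or ZT 18, without replicate A of ZT 9, 12, 15 or 21, or without replicate B of ZT 3 or 6, each left out singly.

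Both genes tested differed among the 8 time points (adjusted p = 2.184e-13 for LHCSR1 from limma), as did 99.2% of all genes, and both fitted a wave of 24 hr, as did 82.4%. The amplitude, the height of the fitted peak above the daily mean of the fit, was 1.73 for LHCSR1 (standard error 0.25, adjusted p = 5.644e-05 from limma, rank 345) and 1.52 for STT7 (standard error 0.16, adjusted p = 1.927e-06, rank 558). The median of all genes was 0.46. The fitted peaks lay at ZT 4.51 for LHCSR1 and at ZT 0.62 for STT7. The fitted peak of STT7 fell between its highest mean at ZT 21 and its second highest at ZT 3, at a time when it was measured lower than at both. A 12-hr wave beside the 24-hr one was called for STT7 (amplitude 0.60, adjusted p = 0.0006308 from limma) and was at an adjusted p of 0.411 for LHCSR1, so for 1 of 2 genes, where 14.1% of all genes were called.

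Without a filter, LHCSR3.1, LHCSR3.2 and PSBS1 also differed among the time points (adjusted p = 6.129e-05, 2.28e-07 and 0.01144 from limma), and PSBS2 was at 0.3812. The call of PSBS1 was lost without the intensity trend (adjusted p = 0.05). With LHCSR1 and STT7 that makes 5 of 6 genes, where 91% of all genes were called. The 24-hr wave was called for LHCSR3.1 (amplitude 0.30, adjusted p = 0.002379 from limma) and LHCSR3.2 (0.55, adjusted p = 0.002958) and not for PSBS1 (0.05424) or PSBS2 (0.1122). It was thus called for 4 of 6 genes with LHCSR1 and STT7, where 74.6% of all genes were called. Leaving out 1 library gave a call for PSBS1 (either replicate of ZT 0 or replicate B of ZT 9, adjusted p of 0.03143 to 0.03533 from limma) and for PSBS2 (replicate A of ZT 6 or of ZT 15, 0.0431 and 0.04272). By the cyclic score, which takes the 24-hr component of power spectra with replicate A as the first day, LHCSR1, LHCSR3.1, LHCSR3.2 and STT7 had the highest score of 1 and were cycling genes at a p of 0.01532 from values in random order, the smallest that this score can give. PSBS1 had a p of 0.02926 and PSBS2 of 0.4256, at a threshold of 0.02. Cycling genes were thus 4 of 6, and 66.5% of the 16622 genes scored. The study's own cutoff for this p was a lower score, which PSBS1 exceeds at 0.955, and its form of the score called a smaller share of genes. The 4 of 6 thus depend on the form of the score and the random orders used here.

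Among the 12153 genes, those with time courses most like LHCSR1, by Pearson r of log2(FPKM + 1) over the 16 libraries, were Cre12.g518900 (r = 0.988), Cre01.g056650 (r = 0.985) and Cre18.g744150 (r = 0.979). They carry no symbol in the sources used here. All 3 had the highest mean at ZT 3 and the lowest at ZT 15, like LHCSR1, at 1.81 to 10.0 FPKM. Genes picked by r share peak and trough largely through that choice, here and for STT7 below. The 16 libraries share their time points in pairs, and r is given as a description. Between LHCSR1 and STT7 r was 0.505, between LHCSR1 and LHCSR3.2 it was 0.494, and between STT7 and LHCSR3.2 it was 0.668. Between the LHCSR3 copies r was 0.889.

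The gene most like STT7 was its neighbour on chromosome 2. Cre02.g120200, with no symbol in the sources used here, ends 2176 positions before the start of STT7 (r = 0.987). It ran from 0.142 to 3.27 FPKM, on 4 to 300 fragments per library, with its highest mean of 3.06 FPKM at ZT 21 and its lowest of 0.159 FPKM at ZT 12, as in STT7. The library kit was stranded, but the mapping and counting settings given in the study's methods, otherwise at their defaults, name no strand option, so reads from overlapping or joined transcripts of these neighbours cannot be told apart here. The next gene model on the other side of STT7, Cre02.g120300, had an r of 0.657 and lay between 0.933 and 2.96 FPKM. The other genes most like STT7 were Cre16.g690130 (r = 0.981), with the same peak and trough, and Cre11.g474300 (r = 0.978), with its highest mean at ZT 0.

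**Figure D5:**
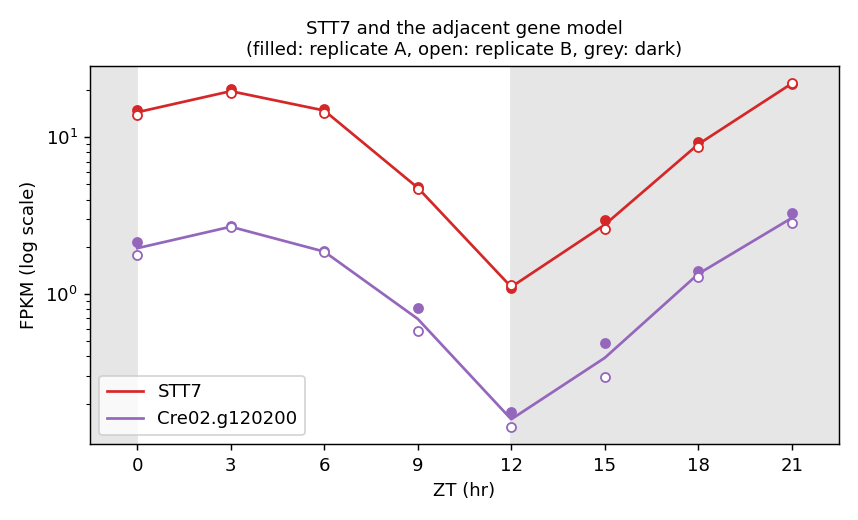
FPKM of STT7 and of the adjacent gene model Cre02.g120200 (vertical axis, log scale) against ZT in hr; lines join means of 2 replicates, filled points are replicate A, open points replicate B, and grey marks the dark. Both genes are lowest at ZT 12, at 1.11 and 0.159 FPKM, and highest at ZT 21, at 22.0 and 3.06 FPKM.

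STT7 was also set beside the protein kinases that share a domain tree with it in the study. The tree names 45 loci of *C. reinhardtii*, of which 33 passed the filter. The lowest mean lay at ZT 12 in 8 of the 33, STT7 included, as in 21.5% of all genes tested. Folds between highest and lowest mean ran from 1.48 to 181, and r of the other 32 with STT7 ran from -0.78 to 0.89. Cre12.g483650, the *C. reinhardtii* locus closest to STT7 in the order of names in that tree's file, had a daily mean of 10.6 FPKM, close to the 11.1 FPKM of STT7, but changed 2.56-fold, from 7.72 FPKM at ZT 9 to 19.7 FPKM at ZT 3 (r = 0.599). Branch lengths of the tree were not used here, so the order of names is no measure of relatedness.

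Other genes of photoprotection and its surroundings were taken from a list of 20 loci for the kinase and phosphatases of state transitions, the xanthophyll cycle, cyclic and alternative electron flow, photoreceptors and the antenna. The list was put together from locus numbers, and only LHCII (Cre06.g283950), an antenna protein, and FNR1 (Cre11.g476750), the ferredoxin NADP reductase, are paired with a symbol in the study. All 20 passed the filter, with daily means of 4.01 to 1178 FPKM. The highest mean lay at ZT 3 in 10 and at ZT 6 in 5 of the 20, and the lowest at ZT 15 in 11 and at ZT 12 in 4. Over all genes tested, the highest mean lay at ZT 3 in 14.9% and at ZT 6 in 15.6%. The lowest lay at ZT 15 in 8.23% and at ZT 12 in 21.5%, so the count of the list at ZT 12 was near the share of all genes. Like LHCSR1, FNR1, Cre05.g242400, Cre16.g691800, Cre17.g720250 and Cre16.g673650 had their highest mean at ZT 3 and their lowest at ZT 15. With STT7, 1 locus of the list, Cre03.g199000, shared a highest mean at ZT 21 (64.8 FPKM) and a lowest at ZT 12 (23.4 FPKM).

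From ZT 0 to ZT 3, 13 of the 20 rose and 4 fell (32.6 and 38.8% of all genes), the median log2 change being 0.73 against -0.06 over all genes. From ZT 6 to ZT 9, 16 fell and the other 4 did not pass the test (28.8% of all genes fell, median -0.68 against 0.04), in the same direction as LHCSR1, STT7 and LHCSR3.2. From ZT 12 to ZT 15, where LHCSR1 fell and STT7 rose, 10 fell and 4 rose (31.9 and 34.2% of all genes). From ZT 18 to ZT 21, in the dark, 13 of the 20 rose and 1 fell (25 and 20.2% of all genes, median 0.40 against 0.02), and from ZT 15 to ZT 18 10 rose and 1 fell (9.25 and 8.89%). From ZT 21 to ZT 0, where both LHCSR1 and STT7 fell, 5 fell and 8 rose (34.2 and 33% of all genes). The 24-hr wave was called for 17 of the 20, near the 82.4% of all genes, at a median amplitude of 0.92 against 0.46, and the median fold of the list was 5.43. Only LHCII, at 20.6-fold, exceeded the 19.8-fold of STT7, and none the 24.1-fold of LHCSR1.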

How the data were processed

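The authors mapped reads with TopHat to genome version 4.3, keeping at most 1 hit per read, and the deposited FPKM per gene model were calculated with Cufflinks; their versions are not given in the sources used here. Each library was scaled here to the 75th percentile of ZT 6 replicate B (factors 0.687 to 1.01), as in a deposited table of 50 scaled genes, which holds 0 of the 6 genes. Fragments were recovered from the confidence limits in the files and were whole within 0.05 for 100% of values under 300 fragments; intervals from them cover counting error only. Samples were grouped by their labels; at ZT 6 the replicate letters in the file names differ from the titles, and the titles were used. limma 3.58.1 (R 4.3.3, intensity trend) was fitted to log2(FPKM + 1) of all 16 libraries; count models were not used because FPKM are not counts. Residuals rest on 2 cultures per time point. The cyclic score used 9 overlapping windows of 8 values and 10 random orders per gene; flat windows counted as 0. COSPOT was not run. The tests were checked on simulated data. Alternatives were other scalings, pseudocounts and filters, a replicate block, no intensity trend, a second day order and leaving out each library; for the 4 genes below the filter, they were run without a filter, a choice made after seeing the data. Named genes are the 6, the 3 most alike by r for each tested gene, the list of 20 loci, and a kinase listed near STT7 in the study's tree; the gene Cre03.g199000 and the neighbours of STT7 were singled out after their values were seen. The members and lists were chosen with earlier results of these data known. Sequences were not used here. Figures were drawn with matplotlib 3.10.9 and tables handled with pandas 2.3.3 under Python 3.11.15. Wilson intervals came from statsmodels 0.14.6 and other intervals from scipy 1.17.1, with numpy 2.4.6.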

Additional observations from a re-analysis of the deposited data

How the results depend on the processing

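Without a filter, 5 genes in place of 2 differed among the time points and 4 in place of 2 had a 24-hr wave, since all 6 genes were then tested. All other counts of called genes stayed within 1.5 times, those of the steps at 15 or 16 with each library left out in turn, and no direction of a called step or light difference reversed. With a replicate block, LHCSR1 and STT7 gave the same counts: 2 for the time points, 2 for the 24-hr wave, 1 for the 12-hr wave, 2 between light and dark and 16 for the steps. Correlations of the A minus B differences between time points ran from -0.27 to 0.33 over 28 pairs (median -0.03), and 10 of 28 exceeded 0.1. The study sequenced the 2 replicates of a time point in different lanes, and its methods do not give the lane of each library. Whether the replicate letters mark a shared batch was not tested. Median ratio scaling shifted the median of all genes by 0.17 from ZT 9 to ZT 12 and -0.12 from ZT 6 to ZT 9; with it, LHCSR1 changed by -0.22 from ZT 9 to ZT 12. FPKM as deposited shifted it by -0.24 from ZT 0 to ZT 3, 0.24 from ZT 6 to ZT 9, 0.10 from ZT 9 to ZT 12 and -0.19 between light and dark, and LHCSR3.2 was then called lower in the light (-0.25, adjusted p = 0.001712 from limma). That call also came without replicate B of ZT 6 (-0.13, adjusted p = 0.02565). With a pseudocount of 0.1, LHCSR3.2 also rose from ZT 9 to ZT 12 and from ZT 12 to ZT 15 (0.75 and 0.76, adjusted p = 0.01809 and 0.01886). The step from ZT 12 to ZT 15 was called with FPKM as deposited (0.34, adjusted p = 0.02342) and without either replicate of ZT 6 too. The log2 ratio of LHCSR3.2 to LHCSR3.1 had a median of 1.71 over 13 libraries and 0.45 with a pseudocount of 1. Depth limits PSBS1, PSBS2 and LHCSR3.1 at ZT 9 and ZT 12, where single fragments decide the value, and with 2 cultures per time point no single library can be called apart.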
